A study of Mus musculus with 10 samples.

Results

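Back skin stretched over a filled expander was compared with back skin over an unfilled one, day by day. The comparison used 8 of the 10 arrays of the series, all those titled expanded or non-expanded: 4 arrays of expanded and 4 of non-expanded whole back skin, with 1 array of each arm at days 0, 7, 14 and 21 after the expander was fully injected. The mice were C57BL/6J and 9 weeks old when the experiment began. A silicone expander was implanted in both arms, and only in expanded mice was it enlarged stepwise by injections of phosphate-buffered saline, so both arms shared the surgery and the implant. The other 2 arrays were telogen skin (hair follicles at rest) and anagen skin (follicles in growth) from mice without surgery. They are given as levels beside the comparison, and they also entered the mean by which genes and probe sets were chosen for testing. Nothing in the labels states if the RNA of an array was pooled from several mice, so p-values here speak of the scatter among arrays and perhaps not among animals.

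A tissue expander stretches the skin above it, and stretched skin gains area by cell division in the epidermis and by remodelling of the dermis. Mouse back skin also carries a thin sheet of skeletal muscle beneath the dermis, so whole skin holds muscle, fat, vessels, nerves and immune cells beside keratinocytes and fibroblasts. Type I interferons act on all of these cells: they switch on antiviral genes, many of which carry interferon-stimulated response elements in their promoters. Among the function lists followed here, that with the highest share of members lower in expanded skin at all 4 days was the list of interferon-stimulated genes, and promoters of 4 of its genes are shown here because they hold at least 2 copies of that element. They are the 250 bases before the gene start in RefSeq (GRCm38.p6), 5′ to 3′ along the gene's strand, with matches to the element's core on either strand in capitals. The core searched for was GAAA, then any 2 bases, then GAAA, a textbook consensus and not a sequence taken from these data. Isg15 lies on the minus strand (chr4:156200819-156201068), Ifit1 on the plus strand (chr19:34640639-34640888), Ifit3 on the plus strand (chr19:34583279-34583528) and Bst2 on the minus strand (chr8:71537473-71537722).
Isg15: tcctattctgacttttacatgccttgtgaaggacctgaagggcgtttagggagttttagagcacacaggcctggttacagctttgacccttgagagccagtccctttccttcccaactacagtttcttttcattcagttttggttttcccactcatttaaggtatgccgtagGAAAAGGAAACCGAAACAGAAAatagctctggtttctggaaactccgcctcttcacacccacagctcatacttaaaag
Ifit1: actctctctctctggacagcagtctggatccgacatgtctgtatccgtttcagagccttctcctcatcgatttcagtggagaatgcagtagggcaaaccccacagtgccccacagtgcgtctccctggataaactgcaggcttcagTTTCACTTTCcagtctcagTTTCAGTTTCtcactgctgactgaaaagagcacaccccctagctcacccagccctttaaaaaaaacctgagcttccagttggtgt
Ifit3: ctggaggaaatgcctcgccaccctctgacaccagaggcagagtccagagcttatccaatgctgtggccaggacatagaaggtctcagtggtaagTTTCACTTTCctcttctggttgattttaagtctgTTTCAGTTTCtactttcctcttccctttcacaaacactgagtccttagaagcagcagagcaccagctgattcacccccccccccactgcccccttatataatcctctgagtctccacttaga
Bst2: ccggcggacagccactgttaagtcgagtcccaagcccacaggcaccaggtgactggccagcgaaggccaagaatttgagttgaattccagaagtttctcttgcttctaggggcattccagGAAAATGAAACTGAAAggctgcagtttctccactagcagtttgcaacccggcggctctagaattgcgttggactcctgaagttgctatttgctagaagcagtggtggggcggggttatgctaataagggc
The matches in Isg15 overlap one another and form 1 run in capitals, and so do those in Bst2. Ifit3b, the near-identical neighbour of Ifit3, also held at least 2 copies and is not shown. Windows of 250 bases before to 50 bases after the gene start held this motif on either strand for 413 of the 11001 tested genes with a promoter in the table (3.75%). It was found for 9 of the 16 interferon-stimulated genes with such a window (56.2%), and for 7 of the 11 of them that were lower in expanded skin at all 4 days. A match is a string of letters and no measurement of binding. Because many interferon-stimulated genes are known to carry this element, the list's share is background and no result of these data. Other motifs were searched for in the respiratory chain and ribosome biogenesis lists and are not given here.

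Levels are deposited log2 signals, and differences are expanded minus non-expanded skin on the same day. Array medians lay between 6.27 and 6.45, and the 8 arrays correlated pairwise at 0.948 to 0.98 over probe sets. All 12 genes chosen to define skin (among them Krt5, Krt10, Col1a1 and Pecam1) read between 10.85 and 19.52 on every one of the 8 arrays. Background probe sets had a median of 5.46, and 586 probe sets lay above 16, the limit of a 16-bit scanner on the log2 scale, so the scale may be stretched. In this bulk tissue, fewer cells of a type and less RNA per cell cannot be told apart.

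Of 13653 genes tested, 1254 (9.18%) were higher in expanded skin at all 4 days and 1106 (8.10%) were lower at all 4 days. For 405 genes (2.97%) every expanded array read above every non-expanded array, and for 255 (1.87%) every expanded array read below. Differences of at least 1 on the log2 scale held at all 4 days for 32 genes upwards (0.234%) and 31 downwards (0.227%). In limma's fit with the day as a block, 1202 genes (8.80%) had an unadjusted p under 0.05, of which 659 were higher and 543 lower in expanded skin. No gene passed after Benjamini-Hochberg adjustment over all genes (0 genes, 0%), and the lowest adjusted p was 0.221. With 4 pairs an exact permutation test of a single value cannot go below 0.125. Every gene below is therefore described by its values, and no difference below passed the adjusted threshold.

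The genes that kept the widest margin on all 4 days were ranked by the smallest of their same-day differences. Among the 15 highest, Myh3 and Tnnt2 belong to embryonic and cardiac muscle, and Thbs1 and Igfbp2 to matrix and growth factor binding. Masp1, a serine protease that starts the lectin pathway of complement, read 11.05, 10.80, 11.69 and 10.15 at days 0, 7, 14 and 21 in expanded skin, against 8.53, 8.95, 8.59 and 8.07 in non-expanded skin. Its lowest expanded array stood above its highest non-expanded array, and its limma difference was 2.39 ± 0.27 (SE; adjusted p = 0.221), with levels of 7.92 in telogen and 7.94 in anagen skin. F2r, the thrombin receptor PAR1, read 12.37, 12.37, 12.74 and 11.25 in expanded skin, against 10.12, 10.56, 9.01 and 9.07 in non-expanded skin. The arms did not overlap, and the difference was 2.49 ± 0.35 (SE; limma adjusted p = 0.268).

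Cxcl14, a chemokine made by epithelia, read 11.96, 12.29, 12.27 and 11.49 in expanded skin, against 9.15, 8.37, 9.29 and 9.67 in non-expanded skin. All 4 expanded arrays were above 11, near the anagen level of 11.86, and the non-expanded arrays lay on both sides of the telogen level of 9.16, with that of day 7 lowest. Cyp1b1, a cytochrome P450 that oxidises steroids, retinoids and aromatic hydrocarbons, read 10.51, 10.63, 9.04 and 9.14 in expanded skin, against 7.36, 8.77, 7.39 and 7.23 in non-expanded skin. The groups did not overlap, although the day 7 array of non-expanded skin stood above its other 3. Aqp3, the water and glycerol channel of the basal epidermis, read 11.89, 12.57, 13.89 and 12.47 in expanded skin, against 9.72, 10.94, 8.38 and 8.89 in non-expanded skin, again with no overlap, and 9.17 in telogen and 12.60 in anagen skin.

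Lgr5, an R-spondin receptor that marks stem cells of the lower hair follicle, read 10.13, 9.88, 11.44 and 10.61 at days 0, 7, 14 and 21 in expanded skin, against 8.68, 8.47, 9.44 and 7.84 in non-expanded skin. Its arms did not overlap, and the difference was 1.91 ± 0.30 (SE; limma adjusted p = 0.268). Uchl1, a deubiquitinating enzyme best known from neurons, averaged 6.79 ± 0.72 over the expanded arrays and 4.54 ± 0.31 over the non-expanded ones (SD, n = 4 each), so all 4 of its non-expanded arrays lay below the background median. Ecrg4, a secreted peptide precursor, averaged 7.46 ± 0.42 over the expanded arrays and 5.45 ± 0.53 over the non-expanded ones (SD, n = 4 each), and Adamts18, a secreted metalloproteinase, averaged 6.91 ± 1.13 over the expanded arrays and 4.78 ± 0.43 over the non-expanded ones (SD, n = 4 each). Both were apart, but their non-expanded levels were at or near background. Mmp12, the macrophage elastase, differed by 1.47, 1.52, 1.50 and 2.67 at days 0, 7, 14 and 21, while its level in both arms was highest at day 0 and the arms overlapped.

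Among the 15 lowest, Mstn, Apobec2, Tnnc2, Klhl31, Cox6a2, Clic5, Lmod2, Cox8b, Tcap and Ppp1r3a are genes of skeletal muscle, with Cox6a2 and Cox8b encoding the cytochrome oxidase subunits used by muscle. The widest margins outside muscle were those of Retnla, Mup2 and Ifi27l2a. Retnla, a secreted resistin-like protein of alternatively activated macrophages and fat, read 6.16, 9.83, 6.78 and 10.79 at days 0, 7, 14 and 21 in expanded skin, against 12.99, 12.20, 14.56 and 12.72 in non-expanded skin. Each expanded array was below each non-expanded one, with wide spread in expanded skin, and telogen skin read 13.36. Mup2 stands for the major urinary proteins, pheromone carriers so alike in sequence that their probe sets may read one another's RNA, and it differed by -3.03, -2.96, -8.68 and -3.04. Its arms overlapped, and telogen skin read 19.28. Tppp3, a tubulin-binding protein also found in tendon sheath cells, averaged 8.92 ± 0.97 over the expanded arrays and 10.87 ± 0.80 over the non-expanded ones (SD, n = 4 each) with no overlap.

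**Figure D1:**
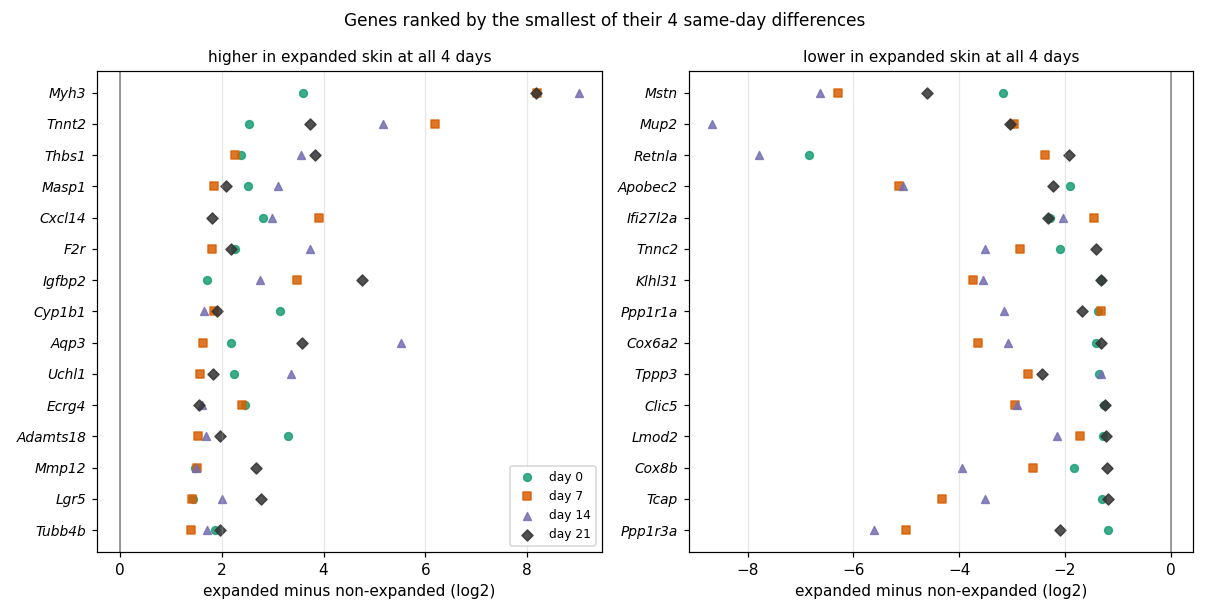
Same-day differences on the log2 scale (x axis) of the 15 genes higher (left) and the 15 genes lower (right) in expanded than in non-expanded skin with the largest smallest difference, ranked downwards; each symbol is 1 day, 1 array per arm. Masp1, F2r and Cyp1b1 stay between 1.65 and 3.73, whereas muscle genes such as Myh3 and Mstn spread more widely over the days.

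To ask which functions kept one sign, 76 lists of function and cell-type genes with at least 5 genes tested were followed. A list was said to hold a sign when its median difference stayed on the same side of the median of all genes at all 4 days. That median was 0.05, -0.06, 0.04 and 0.05 at days 0, 7, 14 and 21. Held lists numbered 9 on the higher side and 3 on the lower side, 12 of 76 (15.8%). Lists are described below by how many of their members were higher or lower at all 4 days, set beside the shares of 9.18% and 8.10% over all genes.

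**Figure D2:**
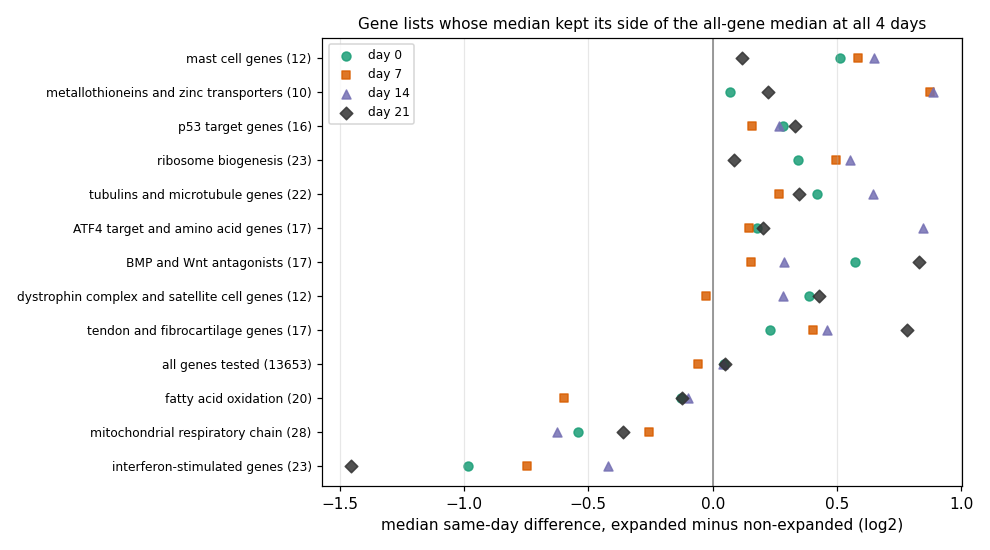
Median same-day difference on the log2 scale, expanded minus non-expanded skin, at each of the 4 days for the 12 lists that held a sign and for all genes; the number of genes tested is in parentheses. The interferon-stimulated list runs from -1.45 to -0.42 and lies lowest at days 0, 7 and 21, with the respiratory chain list lowest at day 14 (-0.63), and the dystrophin complex list is higher only in relation to all genes at day 7, at -0.03.

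**Figure D3:**
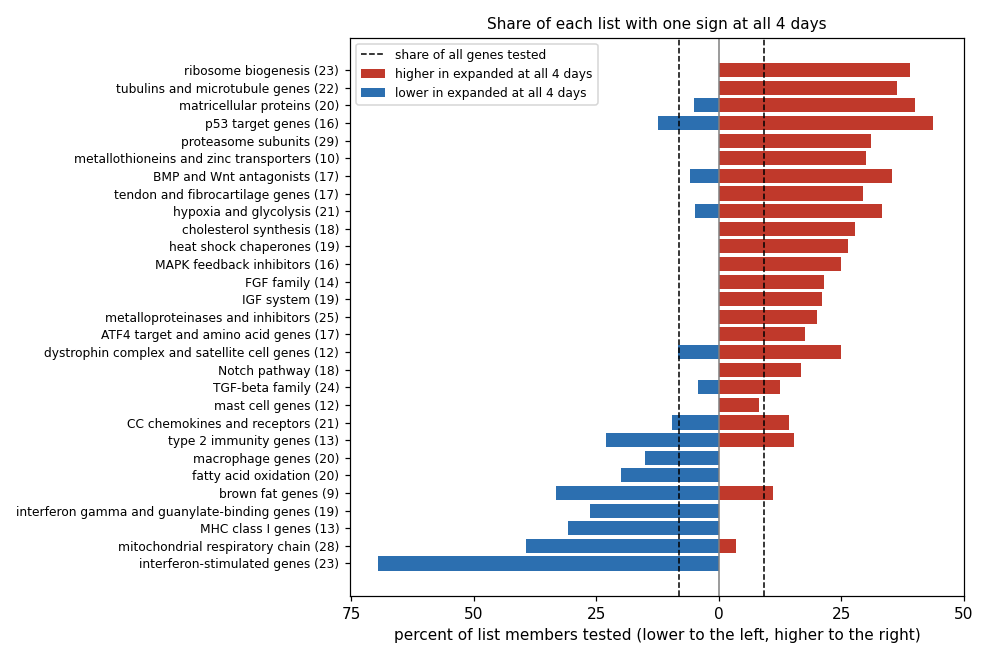
Percent of each described list's tested members (number in parentheses) that were higher (right) or lower (left) in expanded than in non-expanded skin at all 4 days; dashed lines mark 9.18% and 8.10% of all genes. The lists plotted leave out immediate early (55.0% higher), basal epidermis (53.8% higher) and major urinary and lipocalin protein genes (75.0% lower). Among those plotted, the interferon-stimulated list (69.6% lower) and the p53 target list (43.8% higher) reach farthest to each side.

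Interferon-stimulated genes were lower in expanded skin at all 4 days for 16 of 23 members tested (69.6%, against 8.10% of all genes), and none was higher at all 4. Of 29 on the array, 6 fell under the filter on low values. The list's median difference was -0.98, -0.75, -0.42 and -1.45 at days 0, 7, 14 and 21. In limma's fit 15 of the 23 members had an unadjusted p under 0.05, against 8.80% of all genes. These p-values rest on the same differences as the count of signs and are no separate support. Ifi27l2a, an interferon-induced mitochondrial protein, read 7.17, 6.54, 6.52 and 6.31 at days 0, 7, 14 and 21 in expanded skin, against 9.44, 7.99, 8.55 and 8.62 in non-expanded skin. Every expanded array lay below every non-expanded one, and the difference was -2.02 ± 0.24 (SE; limma adjusted p = 0.221), with 7.91 in telogen and 5.84 in anagen skin. Herc6, which attaches ISG15 to proteins in mice, read 8.38, 8.53, 7.77 and 8.32 in expanded skin, against 9.88, 9.28, 8.58 and 9.55 in non-expanded skin. Both arms stood clear of each other, and telogen skin read 8.17.

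Rtp4, which restrains viral replication, read 7.72, 8.11, 6.42 and 6.38 in expanded skin, against 9.64, 9.03, 7.58 and 9.66 in non-expanded skin. The arms overlapped because the non-expanded array of day 14 lay below the expanded arrays of days 0 and 7. That non-expanded array stood close to the telogen level of 7.41. Trim30a, a tripartite-motif regulator of innate signalling, read 7.05, 7.59, 6.43 and 7.55 in expanded skin, against 8.03, 8.56, 7.41 and 9.54 in non-expanded skin, with same-day differences of -0.98, -0.97, -0.98 and -1.99. The 4 genes whose promoters are printed above were singled out after their values were seen. Isg15, the ubiquitin-like modifier, read 5.16, 5.42, 4.49 and 4.98 in expanded skin, against 7.74, 5.52, 4.85 and 6.15 in non-expanded skin, so that all 4 expanded arrays, and the day 14 array of non-expanded skin, lay below the background median of 5.46. Ifit3, which binds IFIT1 on viral RNA, read 8.51, 9.66, 7.51 and 8.15 in expanded skin, against 10.78, 10.06, 8.39 and 10.42 in non-expanded skin. Its near-identical neighbour Ifit3b may share its probes. Bst2, the tetherin that holds budding virus on the cell surface, read 13.45, 13.55, 11.44 and 11.42 in expanded skin, against 14.14, 14.09, 13.26 and 13.65 in non-expanded skin, with the wider gaps at days 14 and 21. The difference of Ifit1, a sensor of viral RNA caps, was -2.08, -0.34, -0.65 and -2.10 at the 4 days.

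**Figure D4:**
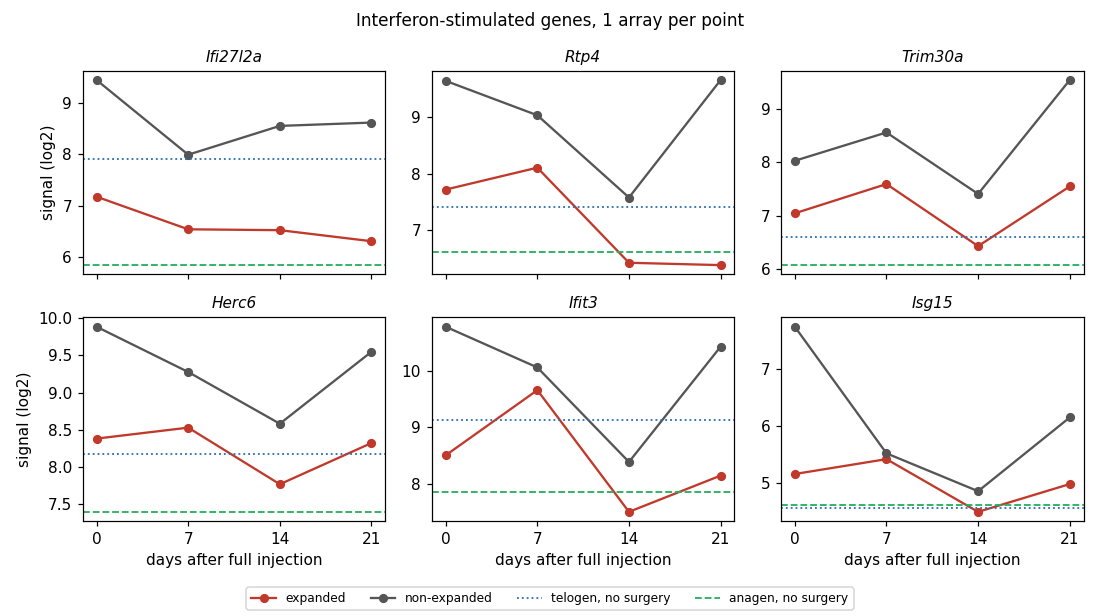
Log2 signal (y axis) of 6 interferon-stimulated genes by days after full injection (x axis), 1 array per point, in expanded and non-expanded skin; horizontal lines give telogen and anagen skin without surgery. The line of expanded skin runs below that of non-expanded skin on all 4 days in each panel, and Isg15 and Ifit3 show narrow gaps at day 7.

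The mean of the interferon-stimulated list was 7.54, 7.66, 6.79 and 7.05 in expanded skin, against 8.65, 8.50, 7.31 and 8.72 in non-expanded skin, with 7.17 in telogen and 6.64 in anagen skin. The non-expanded arrays of days 0, 7 and 21 stood above every other array, and that of day 14 lay within the expanded range. The 7 tested members that did not hold the sign were Irf9, Stat2, Ifit2, Mx1, Mx2, Ddx58 and Cmpk2. Mx1, an antiviral GTPase that is defective in many inbred mouse strains, was higher in expanded skin at days 7 and 14. The macrophage list (20 genes) had a mean of 9.92 to 11.62 in expanded and 10.41 to 12.49 in non-expanded skin, and its median difference was 0.14, -1.13, 0.39 and -2.04. It thus ran with the interferon-stimulated list at days 7 and 21 and against it at days 0 and 14, and its part in the result was not tested. Of the macrophage list, 3 of 20 members were lower at all 4 days, against 8.10% of all genes, and none was higher at all 4. The list did not move together: 12 of the 20 were higher in expanded skin at day 0 and 15 at day 14, but 1 at day 7 and 1 at day 21. The 3 lower members were Folr2, Timd4 and Lyz1, with no overlap between the arms in any of them. Folr2, the folate receptor of resident macrophages, read 11.06, 11.40, 10.46 and 9.34 in expanded skin, against 12.29, 12.07, 11.95 and 13.35 in non-expanded skin.

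Genes of the interferon-gamma programme and of antigen presentation followed less evenly. Among interferon-gamma and guanylate-binding genes 5 of 19 (26.3%) were lower at all 4 days, and the list's median was 0.12, -0.64, -0.39 and -2.21. Irf1, the transcription factor at the head of this programme, read 10.05, 9.47, 8.67 and 9.33 at days 0, 7, 14 and 21 in expanded skin, against 10.37, 10.89, 10.85 and 11.54 in non-expanded skin. Its arms did not overlap, and the gap widened with the later days. Irgm2 and Irgm1, GTPases that act on pathogen vacuoles, differed by -0.68, -1.85, -0.39 and -3.02 and by -0.48, -0.39, -1.19 and -3.35. Among MHC class I genes 4 of 13 (30.8%) were lower at all 4 days: H2-T23 and H2-T24, both apart, the peptide transporter Tap1, and B2m, the light chain shared by all class I molecules. B2m differed by only -0.16, -0.27, -0.03 and -0.62, near the top of the scale.

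Genes of mitochondrial respiration made the second group on the lower side. Of 28 respiratory chain genes tested, 11 (39.3%) were lower at all 4 days and 1, Uqcrfs1, was higher, with list medians of -0.54, -0.25, -0.63 and -0.36. Ndufa9, an accessory subunit of complex I, read 10.97, 11.23, 11.04 and 11.16 at days 0, 7, 14 and 21 in expanded skin, against 11.68, 11.81, 11.70 and 11.74 in non-expanded skin. There was no overlap between the arms and the spread within each was small, with a difference of -0.63 ± 0.20 (SE; limma adjusted p = 0.472). Cyc1, cytochrome c1 of complex III, read 6.44, 6.86, 6.39 and 6.57 in expanded skin, against 7.01, 7.43, 7.43 and 7.66 in non-expanded skin, again without overlap. Sdhb, the iron-sulphur subunit of complex II, and Cox5a, of cytochrome oxidase, differed by -0.41, -0.30, -0.53 and -0.35 and by -0.29, -0.51, -1.20 and -0.46. Uqcrfs1, the Rieske protein of complex III, differed by 0.18, 0.30, 1.02 and 0.36.

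The respiratory list averaged 11.52, 11.94, 11.63 and 11.88 in expanded skin, against 12.00, 12.08, 12.13 and 12.22 in non-expanded skin, and 12.09 in telogen skin. No expanded array reached the lowest non-expanded array. The mean of 25 adult muscle fibre genes, a tissue rich in mitochondria, was 13.85, 11.60, 11.94 and 14.47 in expanded skin, against 13.91, 14.68, 14.82 and 15.37 in non-expanded skin. The median difference of the muscle list was -0.06, -2.84, -2.84 and -0.86 at days 0, 7, 14 and 21, beside -0.54, -0.25, -0.63 and -0.36 for the respiratory list. The part of muscle in the result was not tested. Without day 7, 19 respiratory genes were lower at the other 3 days, against 15.75% of all genes.

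Genes that burn fatty acids held the lower side as a list by a small margin outside day 7, with medians of -0.13, -0.60, -0.10 and -0.12, and 4 of 20 (20%) were lower at all 4 days. Cpt1b, the carnitine transferase of muscle, read 5.91, 5.84, 5.68 and 9.30 in expanded skin, against 6.56, 9.37, 7.95 and 10.28 in non-expanded skin. The arms overlapped, since the expanded array of day 21 stood far above its other 3. Slc25a20, the mitochondrial carnitine carrier, differed by -0.14, -0.67, -0.09 and -0.40 without overlap, Acaa2, the last thiolase of the cycle, by -0.72, -0.52, -0.55 and -0.34, and Pdk4, which turns the cell from glucose towards fat, by -0.03, -1.62, -2.17 and -2.68. Of 9 brown fat genes, 3 (33.3%, against 8.10% of all genes) were lower at all 4 days: Cox8b, Cox7a1 and Ppargc1a. The list did not hold, with medians of -0.82, -0.80, -0.70 and 0.47, and Cox8b is counted above among genes of skeletal muscle. Ppargc1a, the coactivator that drives mitochondrial biogenesis, read 5.10, 6.64, 6.02 and 9.16 in expanded skin, against 7.60, 8.83, 8.64 and 10.18 in non-expanded skin, and its same-day gap exceeded 2 at days 0, 7 and 14. Dio2, which makes active thyroid hormone, was higher at all 4 days, at 1.33, 0.46, 1.82 and 1.51.

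On the higher side, leaving aside immediate early and epidermal genes, the share was greatest for p53 target genes, with 7 of 16 (43.8%, against 9.18% of all genes) higher at all 4 days, and 2 of 16 (12.5%) lower. The list medians were small, at 0.28, 0.16, 0.27 and 0.33. Plk2, a stress-induced kinase that acts at the centriole, read 11.38, 11.12, 10.81 and 11.56 at days 0, 7, 14 and 21 in expanded skin, against 10.32, 9.88, 10.44 and 9.77 in non-expanded skin. The arms stood apart, and anagen skin read 12.31. Trp53inp1, a stress protein, and Eda2r, a receptor of the TNF family, differed by 0.64, 0.58, 0.80 and 0.26 and by 0.17, 0.41, 1.18 and 1.32, and Aen, an exonuclease of cell death, by 0.30, 0.16, 0.17 and 0.40. Fas and Bbc3, both of which trigger apoptosis, went the other way, at -0.47, -0.48, -0.35 and -1.82 for Fas and -0.71, -0.29, -0.11 and -0.08 for Bbc3, with Bbc3 below the background median in all 4 expanded arrays and in the non-expanded arrays of days 7, 14 and 21. The list mean was 10.30, 10.03, 10.24 and 10.26 in expanded skin, against 9.95, 9.81, 9.94 and 9.95 in non-expanded skin, without overlap.

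Ribosome biogenesis genes were higher at all 4 days for 9 of 23 (39.1%) and lower for none, with medians of 0.34, 0.49, 0.55 and 0.08. At day 21 the list median stood only narrowly above that of all genes (0.05). Pes1, needed to process the large ribosomal subunit's RNA, read 11.97, 12.37, 12.48 and 12.25 at days 0, 7, 14 and 21 in expanded skin, against 11.43, 11.85, 11.32 and 11.94 in non-expanded skin. Ddx21, a nucleolar RNA helicase, read 12.10, 12.47, 12.47 and 12.17 in expanded skin, against 11.74, 11.79, 11.25 and 11.87 in non-expanded skin. Neither gene's arms overlapped, and anagen skin stood higher than either arm in both, at 12.86 and 13.08. Utp20 and Wdr43, of the small-subunit processome, differed by 0.87, 0.87, 0.93 and 0.08 and by 0.03, 0.81, 0.27 and 0.37. The list averaged 10.07, 10.23, 10.31 and 9.98 in expanded skin, against 9.74, 9.80, 9.72 and 9.91 in non-expanded skin, with 9.37 in telogen and 11.04 in anagen skin. Without day 7, 14 members were higher at the other 3 days, against 21.02% of all genes.

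Tubulin and microtubule genes were higher at all 4 days for 8 of 22 (36.4%) and lower for none, with medians of 0.42, 0.26, 0.64 and 0.35. Tubb4b, a widely used beta-tubulin, read 11.27, 11.41, 12.06 and 12.09 at days 0, 7, 14 and 21 in expanded skin, against 9.40, 10.01, 10.35 and 10.12 in non-expanded skin. The arms did not overlap, and the difference was 1.74 ± 0.22 (SE; limma adjusted p = 0.221), with 8.63 in telogen and 12.08 in anagen skin. Tubb2a and Tubb2b, neighbouring beta-tubulin genes that may share probes, differed by 1.40, 0.92, 1.72 and 0.85 and by 1.93, 0.49, 1.82 and 0.42. Map1b, a microtubule-binding protein of growing axons, read 12.88, 11.69, 12.84 and 12.46 in expanded skin, against 11.45, 11.13, 10.63 and 11.26 in non-expanded skin, without overlap. Anagen skin exceeded telogen skin in this list as well, at means of 11.20 and 9.37.

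Because ribosome biogenesis and tubulin genes were both higher in anagen than in telogen skin, the hair cycle was read beside them. The mean of 18 hair shaft and inner root sheath genes was 4.84, 11.39, 5.41 and 6.02 in expanded skin, against 4.85, 4.74, 7.26 and 4.79 in non-expanded skin, with 6.20 in telogen and 15.95 in anagen skin. The day 7 array of expanded skin thus stood well above the other 7. The filter that left these 18 genes used a mean that included the anagen array. The median difference of the hair list was 0.10, 6.93, -1.46 and 0.58 at days 0, 7, 14 and 21, beside 0.34, 0.49, 0.55 and 0.08 for ribosome biogenesis and 0.42, 0.26, 0.64 and 0.35 for tubulin genes. The part of the hair cycle in these results was not tested.

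Proteasome subunits were higher at all 4 days for 9 of 29 (31.0%) and lower for none, but their list median was -0.02 at day 0 and 0.47, 0.30 and 0.18 thereafter. Without day 0, 18 of the 29 were higher at the other 3 days, against 16.6% of all genes. Psmc4, an ATPase of the regulatory particle, read 11.43, 11.45, 11.49 and 11.05 in expanded skin, against 10.94, 11.17, 10.26 and 10.80 in non-expanded skin. The arms overlapped, with the expanded array of day 21 set apart from its other 3. Chaperones followed the same course: 5 of 19 heat shock genes (26.3%) were higher at all 4 days, with medians of -0.12, 0.39, 0.36 and 0.24. Hspb8 and Dnajb4 differed by 0.76, 0.39, 1.48 and 1.64 and by 0.39, 0.22, 1.43 and 0.62. Cholesterol synthesis swung more widely, with medians of -0.70, 1.25, 0.11 and 1.02, yet 5 of 18 genes (27.8%) were higher at all 4 days. Mvk, mevalonate kinase, differed by 0.53, 1.22, 1.03 and 1.00, Srebf2, the transcription factor of the pathway, by 0.73, 0.41, 1.37 and 1.06, and Dhcr7, its last enzyme, by 0.13, 1.28, 2.55 and 1.52.

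The ATF4 target and amino acid list had medians of 0.18, 0.15, 0.85 and 0.20, with 3 of 17 (17.6%) higher at all 4 days and none lower. Slc7a5, the large neutral amino acid transporter, read 8.96, 8.77, 10.09 and 8.99 at days 0, 7, 14 and 21 in expanded skin, against 7.00, 8.07, 7.50 and 8.37 in non-expanded skin. Both arms stood clear of each other. Slc7a1, the carrier of cationic amino acids, differed by 0.63, 0.42, 2.07 and 0.47, and Sesn2, a leucine sensor, by 0.39, 0.06, 0.69 and 0.96 around the background median. Metallothionein and zinc transporter genes had medians of 0.07, 0.87, 0.89 and 0.22, and 3 of 10 (30%) were higher at all 4 days: Slc39a2, Slc39a6 and Slc30a4. At day 0 the list median stood only narrowly above that of all genes (0.05). Slc39a2, a zinc importer of differentiating keratinocytes, read 5.41, 7.49, 6.99 and 5.78 in expanded skin, against 5.15, 5.26, 5.25 and 5.09 in non-expanded skin, so its non-expanded arrays were all below background. Of hypoxia and glycolysis genes 7 of 21 (33.3%) were higher and Tpi1 alone was lower at all 4 days. Egln3, an oxygen-sensing hydroxylase, read 14.17, 15.01, 14.06 and 14.04 in expanded skin, against 12.33, 12.41, 13.22 and 12.91 in non-expanded skin, and the glucose transporter gene Slc2a1 read 14.50, 15.14, 14.39 and 13.72 in expanded skin, against 13.70, 13.06, 13.57 and 12.92 in non-expanded skin. Neither overlapped between the arms, although the list median was -0.22 at day 7 and 0.00 at day 21.

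Antagonists of BMP and Wnt signalling were higher at all 4 days for 6 of 17 (35.3%), and 1, Sfrp4, was lower. The list medians were 0.57, 0.15, 0.29 and 0.83. Sfrp1, a secreted Wnt-binding protein, read 12.87, 13.70, 12.99 and 13.49 at days 0, 7, 14 and 21 in expanded skin, against 10.28, 12.06, 11.64 and 12.52 in non-expanded skin. There was no overlap between the arms, and the difference was 1.64 ± 0.31 (SE; limma adjusted p = 0.303), with 10.37 in telogen and 15.22 in anagen skin. Dkk2, which binds the Wnt co-receptor, read 8.25, 8.20, 8.18 and 7.83 in expanded skin, against 7.76, 7.44, 7.48 and 6.91 in non-expanded skin, also apart, with less than 1 between the arms on every day. Nkd2, an intracellular Wnt inhibitor, and Dkk3, a secreted member of the Dickkopf family, differed by 0.55, 1.06, 0.62 and 0.95 and by 1.55, 0.45, 0.74 and 2.22. Sfrp4, a further Wnt-binding protein of the dermis, read 10.70, 6.61, 10.44 and 10.59 in expanded skin, against 10.87, 12.52, 12.62 and 12.50 in non-expanded skin. The arms were apart by a narrow margin at day 0, and the expanded array of day 7 was far below the rest.

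Tendon and fibrocartilage genes had medians of 0.23, 0.40, 0.46 and 0.78, with 5 of 17 (29.4%) higher at all 4 days and none lower. The members did not move together: 10, 13, 9 and 11 of the 17 were higher at days 0, 7, 14 and 21. The median of their limma differences was 0.08, against 0.02 over all genes. Cilp, a matrix protein of cartilage and fibrosis, read 14.47, 13.38, 14.51 and 13.32 at days 0, 7, 14 and 21 in expanded skin, against 11.84, 12.03, 11.28 and 10.22 in non-expanded skin. The arms stood apart, the difference was 2.58 ± 0.35 (SE; limma adjusted p = 0.26), and skin without surgery stood far lower, at 8.61 in telogen and 8.44 in anagen skin. Comp, which assembles collagen fibrils in tendon, read 5.71, 5.67, 6.44 and 5.82 in expanded skin, against 4.81, 4.53, 4.97 and 4.89 in non-expanded skin, apart at low levels. Col11a1, a minor fibrillar collagen of cartilage, and Thbs4, a thrombospondin of tendon, differed by 1.14, 0.67, 0.95 and 1.11 and by 2.67, 0.40, 4.18 and 2.77. The list averaged 9.67, 9.43, 9.37 and 9.30 in expanded skin, against 9.12, 9.13, 8.79 and 8.71 in non-expanded skin, with no overlap.

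Matricellular proteins, which sit in the matrix and signal to cells, were higher at all 4 days for 8 of 20 (40.0%), with Efemp1 lower. Their list did not hold, with medians of 1.68, -0.17, 1.64 and 0.83, since the non-expanded array of day 7 averaged 12.80 and its other 3 between 10.89 and 11.13. Ccn4, a Wnt-induced matrix signal, differed by 2.28, 0.82, 1.76 and 0.64, Postn, which cross-links collagen, by 0.74, 0.63, 1.82 and 1.03, and Tnc, the tenascin of wounds, by 0.50, 2.89, 4.66 and 3.07. Without day 7, 14 of the 20 were higher at the other 3 days, against 21.02% of all genes. Of metalloproteinases and inhibitors 5 of 25 (20%) were higher at all 4 days. Mmp11, a stromal protease, read 8.54, 9.06, 6.83 and 6.61 in expanded skin, against 7.03, 6.54, 5.50 and 4.80 in non-expanded skin, and Adamts1, which cleaves versican, read 12.80, 11.93, 11.94 and 11.37 in expanded skin, against 10.82, 10.25, 9.24 and 10.42 in non-expanded skin. Adamts1 was apart and Mmp11 overlapped, with both of its arms lower at days 14 and 21 than at days 0 and 7.

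Feedback inhibitors of MAP kinase signalling were higher at all 4 days for 4 of 16 (25%) and lower for none, although the list median was -0.15 at day 7. Dusp6, the phosphatase that switches off ERK, read 11.46, 11.36, 11.79 and 11.76 at days 0, 7, 14 and 21 in expanded skin, against 10.14, 10.24, 9.51 and 9.75 in non-expanded skin. Dusp5, its nuclear counterpart, read 8.78, 9.51, 8.91 and 9.16 in expanded skin, against 7.32, 8.06, 7.98 and 7.45 in non-expanded skin. Neither overlapped, and the differences were 1.68 ± 0.28 and 1.39 ± 0.23 (SE; limma adjusted p = 0.271 and 0.276). Immediate early genes, which the same pathway induces, had 11 of 20 members higher at all 4 days, with list means of 11.99, 10.43, 11.55 and 12.57 in expanded skin, against 10.67, 9.81, 10.78 and 9.76 in non-expanded skin.

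Growth factor systems showed single members that held a sign in lists whose medians turned at day 7. In the FGF family 3 of 14 (21.4%) were higher at all 4 days, all of them receptors. Of these, Fgfr4 lay below the background median of 5.46 on every array but the expanded one of day 21 (6.04). Fgfr3, a receptor of keratinocytes, read 10.22, 11.19, 11.36 and 11.54 at days 0, 7, 14 and 21 in expanded skin, against 9.73, 9.37, 9.71 and 9.53 in non-expanded skin, apart, with anagen skin at 12.54. In the IGF system 4 of 19 (21.1%) were higher and none was lower. Pappa, a protease that frees insulin-like growth factors from their binding proteins, read 6.79, 8.04, 7.64 and 6.86 in expanded skin, against 5.87, 6.17, 6.11 and 5.70 in non-expanded skin, apart from non-expanded but not from telogen skin (7.83). In the Notch pathway 3 of 18 (16.7%) were higher: the ligand Jag1, the receptor Notch1 and the feedback inhibitor Nrarp. Jag1 differed by 0.91, 0.46, 0.93 and 0.53, Notch1 by 1.75, 0.11, 0.77 and 1.27 and Nrarp by 0.71, 1.19, 0.64 and 0.62. In the TGF-beta family 3 of 24 (12.5%) were higher and Tgfb1 was lower, shares near the background. Inhba, the activin A subunit, differed by 1.94, 0.90, 0.86 and 3.28 and Skil, a brake on SMAD signalling, by 0.96, 0.95, 0.85 and 2.00. Tgfb3 differed by 1.52, 0.58, 0.59 and 1.70, and Tgfb1 by -0.12, -0.28, -0.15 and -1.14.

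Cell types gave few held signs. The mast cell list had medians of 0.51, 0.58, 0.65 and 0.12, but 1 of 12 members (8.3%), Mrgprb1, was higher at all 4 days, a share near the background. Mrgprb1, a G protein-coupled receptor of the Mrgpr family, read 6.61, 7.14, 7.39 and 7.65 in expanded skin, against 5.93, 6.60, 6.27 and 6.54 in non-expanded skin, apart. The dystrophin complex and satellite cell list held relative to all genes, with 3 of 12 (25%) higher and Sgca, a sarcoglycan, lower. Myog, the myogenic factor of differentiation, stood at or near background in all arrays and differed by 0.41, 0.49, 0.65 and 0.60. Itga7, the laminin receptor of muscle, differed by 0.19, 0.69, 1.46 and 0.57, and Megf10, a receptor of satellite cells, by 0.40, 0.73, 0.33 and 0.14. Sgca differed by -0.41, -1.65, -0.57 and -0.72.

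Day 7 was the day at which most patterns turned. Of the 76 lists, 21 had a median on the opposite side at day 7 only, against 7 at day 0 only, 4 at day 14 only and 3 at day 21 only. Among single genes, 1616 were higher at the other 3 days and not at day 7, and 1044 were lower at the other 3 days and not at day 7. The counts were 1013 and 932 for day 0, 486 and 493 for day 14, and 518 and 689 for day 21. Lists that turned at day 7 included collagens, elastic fibre genes, matricellular proteins and metalloproteinases. YAP/TAZ targets, a list outside the 76, turned there as well. All of these were higher in expanded skin at the other 3 days. The expanded array of day 7 had the highest hair list mean, and the non-expanded array of day 7 had the highest matricellular mean of the 8 arrays. Each is 1 array, so day 7 and these arrays cannot be told apart.

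**Figure D5:**
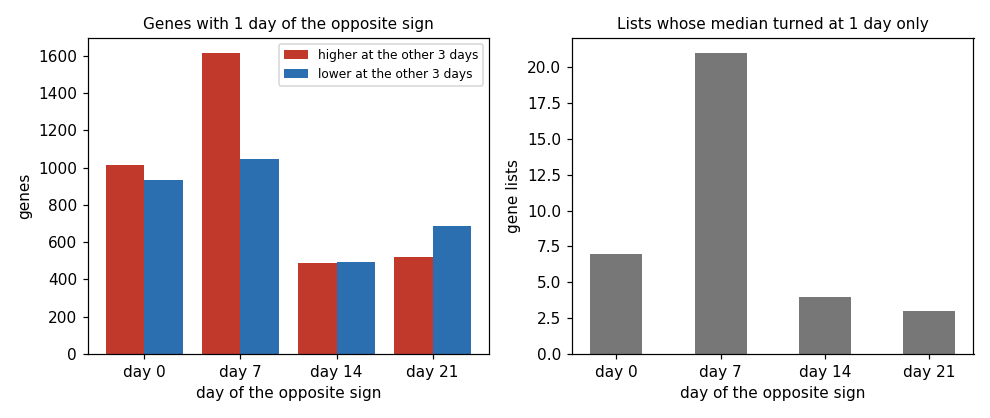
Number of genes (left) and of function and cell-type lists (right) whose sign at 1 day was opposite to that at the other 3, by that day; differences are expanded minus non-expanded skin. Day 7 stands highest in both panels, with 1616 and 1044 genes and 21 lists.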

How the data were processed

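RNA of whole back skin was hybridised to 10 arrays, and 8 of them were compared. The deposited values, 1 per probe set and array for 28846 probe sets, were read as log2 signals from their range; per the labels, total RNA was labelled with the Affymetrix WT PLUS kit, and the log base, background correction and normalization are not given in the sources used here. The submitters' processing notes name mm10. A symbol was given for 19572 probe sets, all matched by gene identifier in RefSeq (GRCm38.p6); 9243 had none and 31 were controls. Of 19505 genes, 55 had several probe sets, and the one with the highest mean over all 10 arrays was used. Genes whose mean over the same 10 arrays was under the 30th percentile (4.86) were left out, and 13653 were tested. A gene high only in skin without surgery could thus pass the filter.

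The 8 arrays were fitted in R 4.3.3 with lmFit and eBayes of limma 3.58.1, with the day as a block (3 residual degrees of freedom), two-sided, with Benjamini-Hochberg adjustment and a threshold of 0.05, after a test on simulated data. The labels tie the replicate numbers to shared days; within a day, the departures of both arrays from the mean of their arm correlated over genes at -0.133, -0.171, -0.104 and 0.358, so the pairing rests on the labels. The small number of arrays limits the precision.

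The lists and the genes were chosen with earlier results of these data known. Genes named are the 15 with the largest smallest same-day difference on each side, without predicted genes and with 1 gene for a family of near-identical copies, and, for each list described, up to 4 members with the largest in the majority direction and up to 2 in the other. Isg15, Ifit1, Ifit3 and Bst2, and the interferon-stimulated genes that did not hold a sign, were named outside this rule after their values were seen. Alternatives covered the replicate block, each day left out, array normalization, the filter, the probe-set rule, limma's variance setting and the size of difference.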

Additional observations from a re-analysis of the deposited data

Results flagged for a closer look

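In 340 groups of 4 arrays (genes named and list means), 22 (6.5%) held an array far from its other 3; chance flags about 1 in 20. In expanded skin the array of day 21 stood high for the muscle genes Apobec2 (11.16, others 6.69 to 6.95), Cox8b (9.83, others 7.10 to 7.42) and Cpt1b (9.30, others 5.68 to 5.91), and for the mean of the fatty acid oxidation list (10.23, others 9.45 to 9.52). It stood low for Psmc4 (11.05, others 11.43 to 11.49) and Dkk2 (7.83, others 8.18 to 8.25). The expanded array of day 7 stood low for Sfrp4 (6.61, others 10.44 to 10.70), Slc25a20 (8.44, others 8.77 to 8.81), the mean of BMP and Wnt antagonists (8.58, others 9.14 to 9.20) and the mean of the IGF system (10.21, others 10.87 to 10.92). It stood high for Egln3 (15.01, others 14.04 to 14.17) and Arg1 (9.54, others 7.99 to 8.13). The expanded array of day 14 stood high for Slc7a5 (10.09, others 8.77 to 8.99) and Igf2 (12.98, others 10.89 to 11.19).

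In non-expanded skin the array of day 7 stood high for Cyp1b1 (8.77, others 7.23 to 7.39) and the matricellular mean (12.80, others 10.89 to 11.13), and low for the p53 target mean (9.81, others 9.94 to 9.95). The array of day 14 stood low for the mean of interferon-stimulated genes (7.31, others 8.50 to 8.72) and for Ccl17 (5.87, others 7.16 to 7.40). That of day 0 stood high for Eda2r (10.66, others 8.34 to 8.71) and low for Sfrp4 (10.87, others 12.50 to 12.62), and that of day 21 stood high for Irs2 (10.47, others 9.39 to 9.51). Each array of an arm is also its only one at that day, so an array that stands apart and a day that differs cannot be told apart.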

How the results depend on the processing

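Of 1531 values for 141 named genes under the alternatives, 1528 kept direction and side of the threshold. The other 3 newly passed it (2 for Myh3, 1 for Cxcl14). That no direction reversed is largely built in. Genes named by the stated rule had the same sign on every day, so leaving out a day could not reverse them. Dropping the block, or changing the filter or the variance setting, left the difference itself unchanged. Only the normalizations and the probe-set rule could have reversed a direction. Without the replicate block (pairing by day ignored), 2 genes passed, Myh3 and Cxcl14, both with limma adjusted p = 0.0325, against 0 with it; leaving out 1 day gave 0 to 1, the 1 being Myh3 without day 0 (adjusted p = 0.00356). Genes with unadjusted p under 0.05 numbered 646 to 1646 with 1 day left out, against 1202. Genes higher at all days numbered 1254 and genes lower 1106. After quantile normalization they numbered 1097 and 1233, and with arrays centred on their medians 1123 and 1234. Which side was larger thus depended on the normalization. With 1 day left out, fewer days have to match, and they numbered 1740 to 2870 and 1599 to 2150, most without day 7 in both. A difference of at least 0.5 on every day left 137 and 125. Without a filter on low values 1848 genes were lower, and with a 50th percentile filter 730, as more or fewer genes were tested. Leaving out day 7 took the lists that held the higher side to 29, against 9. Lists on the lower side, 3 in all, numbered 3 to 6 with 1 day left out (6 without day 0, 5 without day 21), and 5 both without a filter and with the 50th percentile filter. The arrays' number, and signals near background for the low genes named, limit what could be seen.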

Other observations

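Of 21 CC chemokines and receptors, 3 (14.3%) were higher and 2 (9.5%) lower at all 4 days, shares near the 9.18% and 8.10% of all genes, with list medians of -0.44, 0.35, 0.14 and -0.11. Ccl22 differed by 1.79, 1.35, 1.75 and 1.21 at days 0, 7, 14 and 21, and Ccl17, its neighbour on chromosome 8 and a ligand of the same receptor CCR4, by 1.10, 2.39, 1.38 and 0.88. Ccl22 averaged 7.42 ± 0.81 over the expanded arrays and 5.89 ± 0.75 over the non-expanded ones (SD, n = 4 each). Its limma adjusted p was 0.268 and the arms overlapped. Ccl3, which draws macrophages, differed by 1.60, 0.47, 1.01 and 0.03. Ccl6 differed by -1.71, -1.33, -0.52 and -3.94, and Ccl24, an eotaxin, by -0.18, -1.38, -0.12 and -0.78.

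Members of type 2 immunity split between the sides, with 2 of 13 (15.4%) higher and 3 (23.1%) lower at all 4 days. The shares of all genes were 9.18% and 8.10%. The list did not hold a sign, with medians of -0.44, 0.85, 0.65 and -0.43 at days 0, 7, 14 and 21. Of its 13 members, 3, 9, 7 and 5 were higher in expanded skin on these days. Tslp, the epithelial cytokine that starts type 2 responses, read 8.68, 10.10, 8.37 and 9.33 in expanded skin, against 7.04, 7.50, 7.34 and 6.95 in non-expanded skin. Its arms did not overlap (limma adjusted p = 0.273). Retnla and Arg1, both marks of alternatively activated macrophages, were lower at all 4 days. Arg1 differed by -0.82, -0.52, -1.05 and -0.37, and its arms overlapped.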
